A study of Macaca mulatta with 22 samples.

Results

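Heat shock proteins, their J-domain partners and the subunits of the CCT chaperonin were followed through 9 stages from the immature rhesus macaque oocyte to the blastocyst. Members were chosen by gene symbol, read in capitals: HSP followed by a letter A to H or a digit, DNAJA, DNAJB or DNAJC, CCT2 to CCT8, or TCP1. A member also had to reach 1 RPKM (reads per kilobase of transcript, relative to the reads of the library) in at least 2 of the 22 libraries. Of 35468 deposited entries, 101 matched by name and 77 of these passed the filter, with 70 different symbols, among 14312 entries that passed in all. Each library is RNA from 1 oocyte or 1 embryo. The 7 oocyte libraries were 2 at the germinal vesicle stage (GV), 2 at metaphase I (MI) and 3 at metaphase II (MII), taken after death from superovulated animals. The 15 embryo libraries were 3 at the pronuclear stage (PN), 2 with 2 cells (2C), 3 with 4 cells (4C), 2 with 8 cells (8C), 3 morulae (Mo) and 2 blastocysts (Bl), all made by sperm injection into the oocyte and grown in culture. The labels name no other treatment and no genetic change. They do not say which oocytes or embryos shared a donor, so p-values measure only the spread between these single oocytes or embryos.

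Molecular chaperones bind unfolded stretches of other proteins and let them fold. HSP70 proteins do this in cycles of ATP binding and hydrolysis: a J-domain protein, named DNAJA, DNAJB or DNAJC, hands over the client and triggers hydrolysis, and an HSP110 protein, a distant relative of HSP70, releases the nucleotide. HSP90 acts later on partly folded clients such as kinases and steroid receptors. Chaperonins are closed chambers: HSP60 with its lid HSP10 in mitochondria, and in the cytosol CCT (also TRiC), a double ring of different subunits that folds actin and tubulin. Oocytes store chaperone transcripts, and the embryo depends largely on stored RNA and protein before its own genome is switched on in full.

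In each class, the entries that passed the filter were 4 of 5 for HSP90, 10 of 11 for HSP70, 3 of 4 for HSP110, 5 of 6 for HSP60 and HSP10, 10 of 10 for CCT, 4 of 5 for small heat shock proteins, 4 of 5 for DNAJA, 9 of 14 for DNAJB and 23 of 32 for DNAJC. A further 5 of 9 entries matched by name without being chaperones of these families: HSPBP1, HSPBAP1, the pseudogene CCT6P3, the antisense transcript DNAJC3-AS1 and HSPC159. For 4 entries the name table and the description in the deposited table differ. The entry named HSP90AB1 is described as the nucleoside transporter SLC29A1, HSPE1 ENSMMUG00000016547 as the phocein gene MOBKL3, DNAJC24 ENSMMUG00000016807 as ELP4, and DNAJC25 as a G-protein subunit. HSPCA (ENSMMUG00000011073, chromosome 7, 165369168 to 165375954) carries an older symbol of HSP90AA1, the stress-inducible cytosolic HSP90, and was placed with HSP90 after the names had been seen. Of the 24 entries that did not pass, 17 reached 1 RPKM in 0 libraries and 7 in 1. DNAJC4, DNAJC5 and DNAJC6, with 1 library each, lay just outside the filter, and HSPB8, DNAJB12 and HSPA12A ENSMMUG00000010908, with 2 libraries each, just inside it. Of the genes picked by name, HSPA1A, HSPA2, HSPB1 and DNAJB13 are not analysed here, since no entry carried these symbols even before the filter. HSPA1B, HSPA12A, HSPB6, HSPB8, CCT6P3, DNAJA4, DNAJB4, DNAJB5, DNAJB14, DNAJC11, DNAJC14, DNAJC17 and DNAJC28 are named below because of their values, and so are the genes given from the companion lists.

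The libraries held an estimated 5.575 M (8C library 2) to 21.405 M (MII library 3) reads. Morula library 2 stood apart: 4277 entries reached 1 RPKM in it, against 6763 to 10017 in the other libraries. Of the 77 chaperone entries 41 were under 1 RPKM in that library, against 23 and 29 in morula libraries 1 and 3. Marker genes followed the stage labels. The summed level of the oocyte markers lay between 2939 and 7394 RPKM at GV and MI and at or under 9.86 RPKM at Mo and Bl. The genome activation list summed to 8217 and 9456 RPKM in the 8C embryos against at most 30 before, and the blastocyst list reached 1065 and 1605 RPKM at Bl. Among 17 entries for cumulus, granulosa and theca cells, 3 passed the filter. Their list summed to 5.88 to 91.2 RPKM in the libraries from GV to 8C, 0.117 to 6.58 RPKM at Mo and 28.3 and 75.1 RPKM at Bl. Of these, TNFAIP6 averaged 43.2, 66.7 and 49.97 RPKM at GV, MI and MII, HAS2 reached at most 13.1 RPKM, and CYP11A1 averaged 49.98 RPKM at Bl, while AMH, AMHR2 and PTX3 were at 0 in every library. Among leukocyte markers PTPRC was at 0 throughout and 2 entries of LYZ reached 5.03 and 5.76 RPKM. The part of other cells in the results below was not tested.

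Over the 9 stages 54 of the 77 chaperone entries differed (limma F test, adjusted p under 0.05), which is 70.1% against 68.3% of all entries tested. By class, 9 of 10 CCT entries, 7 of 10 HSP70, 2 of 3 HSP110, 4 of 4 HSP90, 3 of 5 HSP60 and HSP10, 4 of 4 small heat shock, 2 of 4 DNAJA, 7 of 9 DNAJB and 13 of 23 DNAJC entries differed. These counts include CCT7, HSPB3, HSPB8, HSP90AA1 IMMRNTR97 and HSPA12A ENSMMUG00000010908. Such entries would not have passed the filter without the stages where they are high, so their calls are no support for a difference. Mean levels peaked at the blastocyst for 22 entries, 9 of them of the CCT class, and at GV for 12, of which 7 were DNAJC genes. The blastocyst count includes CCT7, HSPB3 and HSPB8. The shares of all entries that peak at these stages were not counted, so the peaks only describe the members.

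**Figure D1:**
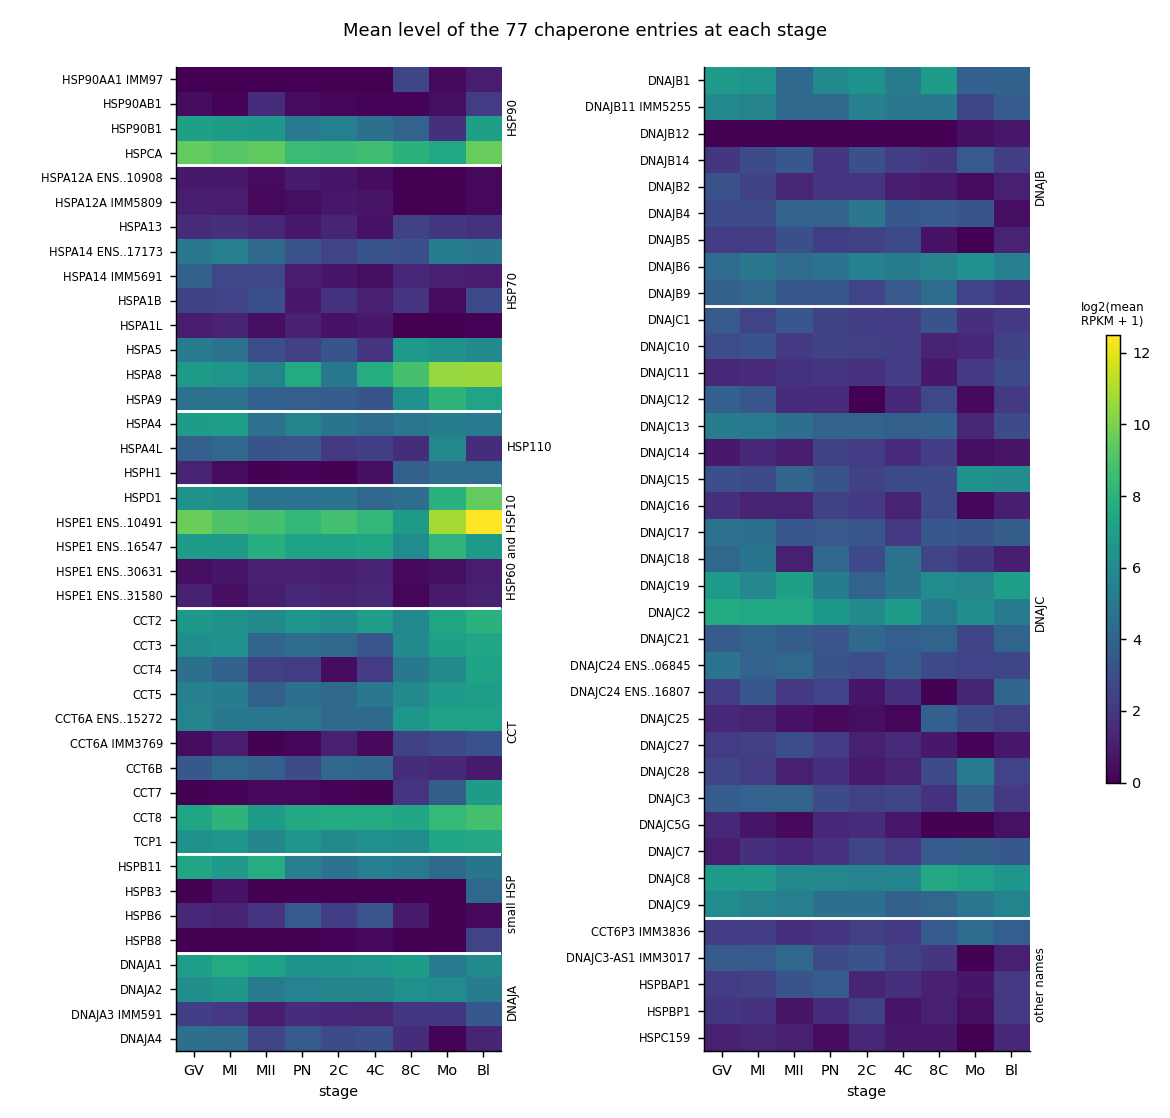
Heat map of the mean level of each of the 77 entries (rows, grouped by class) at the 9 stages (columns, GV to Bl), coloured by log2(mean RPKM + 1). Most CCT rows and HSPA8, HSPA9, HSPD1 and HSPE1 are brightest at the right, while CCT6B, DNAJA4, DNAJC13 and DNAJC2 are brighter on the left.

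From the mean of PN, 2C and 4C (called early below) to the mean of 8C, Mo and Bl (late), 25 chaperone entries rose and 21 fell. These are 32.5% and 27.3% of the members, against 25.7% higher and 32.5% lower among all 14312 entries. The median log2 change was -0.01 over the members and -0.15 over all entries. Log2 changes here are differences of log2(RPKM + 1), which understate the change of low genes. Rescaling the libraries to a common median ratio moved the median over all entries to 0.03, and the members' split became 32 higher and 13 lower. Of the 25 rises 5 (CCT7, HSPB3, HSPB8, DNAJB12 and HSP90AA1 IMMRNTR97) and of the 21 falls 1 (HSPA12A ENSMMUG00000010908) belong to entries that would not have passed the filter without the libraries of the higher side. These had to differ, so their levels are given with no test of that difference. CCT7 is among the 7 CCT rises counted next, HSPA12A ENSMMUG00000010908 among the 2 HSP70 falls and DNAJB12 among the 2 DNAJB rises. The 7 CCT rises also hold IMMRNTR3769, an entry named CCT6A that overlaps the entry of the pseudogene CCT6P3. CCT had 7 of 10 entries up and 1 down with a median log2 change of 1.94. HSP70 had 4 of 10 up and 2 down with a median of 0.64. DNAJB had 2 of 9 up and 5 down (median -0.82). DNAJC had 3 of 23 up and 6 down, both below the shares over all entries, with a median of -0.04. Of these calls, 19 of the 25 rises and 14 of the 21 falls stood whichever single library was left out. Whole embryos were measured, so fewer cells of a type and less RNA per cell cannot be told apart.

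**Figure D2:**
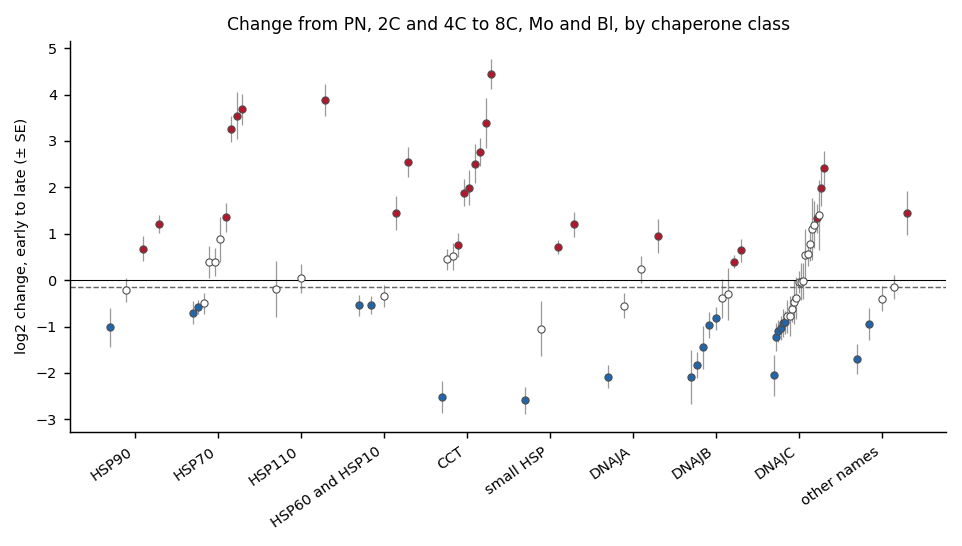
Log2 change from early (PN, 2C, 4C) to late (8C, Mo, Bl) of each chaperone entry, with its standard error from limma, by class; red points rose, blue points fell and open points did not pass adjusted p 0.05. The dashed line is the median of all entries, -0.15; the CCT column has 7 red points, and the largest rise is CCT4 at 4.45.

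Between single stages, which hold 2 or 3 libraries each, the calls were fewer and many of them were lost when 1 library was left out. Below, the number in brackets after such a library is the adjusted p without it. From GV to MII, 0 members rose and 8 fell by limma, against 0.342% and 8.97% of all entries. At an unadjusted p under 0.05, 1 member was higher and 16 lower. The median log2 change was -0.50 over the members, against -0.19 over all entries or -0.05 with rescaled libraries. Leaving out GV library 1 left 0 of these falls, GV library 2 left 2 and MII library 2 left 5, and rescaling gave 3. From MII to 4C, 2 members rose and 5 fell, against 3.11% and 6.09%. The falls numbered 1 without MII library 1, 4C library 1 or 4C library 3, 3 without MII library 3 and 8 without morula library 2. On rescaling 3 members rose and 1 fell. From 4C to 8C, 11 rose and 9 fell, against 13.9% and 10.2%. These falls were 5 without 4C library 1 and 4 without 8C library 2, and on rescaling 12 members rose and 3 fell. From 8C to Mo, 10 rose and 12 fell, against 5.39% and 20% of all entries, whose median was -0.38 or, with rescaled libraries, -0.25. The rises numbered 5 without 8C library 2 and the falls 7 without 8C library 1. Without morula library 2 the counts were 11 and 12. From Mo to Bl, 12 rose and 1 fell, against 12% and 2.12%, with a median over all entries of 0.23, or 0.07 with rescaled libraries. The rises numbered 4 without Bl library 1 and 11 without morula library 2, and the falls 2 without morula library 3 and 0 without Bl library 2. Again by way of the filter, HSP90AA1 IMMRNTR97 is among the rises from 4C to 8C and the falls from 8C to Mo, and HSPB3 and HSPB8 are among the rises from Mo to Bl. In a fit of only the stages compared, 0 members rose and 4 fell from 8C to Mo, and 3 rose and 0 fell from Mo to Bl.

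HSPA8, the constitutive HSP70 of the cytosol (HSC70; chromosome 14, 121410925 to 121415587), had the highest level of the HSP70 entries and rose early to late. In oocytes HSPA8 was at 80.003 and 141 RPKM at GV, 112 and 70.2 at MI and 52.9, 35.99 and 53.5 at MII. Up to 4C, HSPA8 was at 198, 151 and 238 RPKM at PN, 49.4 and 14.1 at 2C and 211, 175 and 254 at 4C. From 8C on, HSPA8 was at 524 and 406 RPKM at 8C, 1209.9, 1267 and 1964 at Mo and 2011 and 1116 at Bl. Every late embryo was above every earlier library, and both 2C embryos were below every PN and 4C embryo. The mean went from 47.5 ± 9.94 (SD, n = 3) RPKM at MII to 214 ± 39.3 (SD, n = 3) at 4C (log2 change 2.15, SE 0.44, adjusted p = 0.00397). The early to late rise (log2 change 3.26, SE 0.28, adjusted p = 1.87e-08) stood without any single library. The step from 8C to Mo also passed (log2 change 1.64, SE 0.49, adjusted p = 0.018). The HSPA8 call from 8C to Mo was lost without 8C library 2 (0.113) or Mo library 3 (0.0586).

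HSPA8 made up 40.3% to 54.3% of the summed HSP70 RPKM in the 7 oocytes. At PN its share was 84.0% to 90.5%, at 2C 36.0% and 56.5%, and at 4C 85.6% to 94.02%. The summed HSP70 class had a mean of 102 ± 24.5 (SD, n = 3) RPKM at MII and 63.3 ± 34.1 (SD, n = 2) at 2C. It was 237 ± 39.5 (SD, n = 3) RPKM at 4C and 1887 ± 423 (SD, n = 3) at Mo. The class mean, like HSPA8, was lower at 2C than at 4C, a step that was not tested.

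The other cytosolic HSP70 entries were far lower. HSPA1B, the classical heat-inducible HSP70, was at 7.26, 4.103 and 10.7 RPKM at MII and 0.562, 2.66 and 0.129 at 4C. It was at 0.32, 0.036 and 0.455 RPKM at Mo and 10.2 and 1.84 at Bl, and neither pair of stages overlapped. It fell from MII to 4C (log2 change -2.09, SE 0.54, adjusted p = 0.019) and rose from Mo to Bl (log2 change 2.17, SE 0.60, adjusted p = 0.02). The HSPA1B call from MII to 4C was lost without MII library 1 (0.065), MII library 3 (0.0875), 4C library 1 (0.0789) or 4C library 3 (0.1), and at 0.0671 on rescaling. Its rise to Bl was lost without Bl library 1 (0.372). HSPA1L, a close relative known from testis, reached at most 2.36 RPKM and fell early to late by log2 change -0.70, adjusted p = 0.0221. The HSPA1L call early to late was lost without 2C library 1 (0.0962) or Bl library 1 (0.0528). The deposited HSPA1B and HSPA1L entries overlap on chromosome 4, so their reads may be shared.

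HSPA14, an HSP70 that works on ribosomes together with DNAJC2, was high at MI and again from Mo on. In oocytes HSPA14 ENSMMUG00000017173 was at 32.4 and 29.4 RPKM at GV, 41.1 and 44.3 at MI and 26.2, 12.1 and 17.5 at MII. Up to 4C, HSPA14 ENSMMUG00000017173 was at 4.54, 10.2 and 9.66 RPKM at PN, 4.47 and 5.36 at 2C and 6.88, 9.44 and 9.06 at 4C. From 8C on, HSPA14 ENSMMUG00000017173 was at 10.4 and 4.01 RPKM at 8C, 17.1, 58.9 and 40.4 at Mo and 41.98 and 20.2 at Bl. The 3 morulae were above both 8C embryos. It rose early to late (log2 change 1.36, SE 0.31, adjusted p = 0.00118) and from 8C to Mo (log2 change 2.23, SE 0.54, adjusted p = 0.00471). The HSPA14 ENSMMUG00000017173 call from 8C to Mo was lost without 8C library 2 (0.0884). A second, overlapping entry, HSPA14 IMMRNTR5691, fell from 5.04, 3.67 and 7.802 RPKM at MII to 0, 0.585 and 0.52 at 4C (log2 change -2.23, SE 0.46, adjusted p = 0.00475). HSPA13, an HSP70 of the secretory pathway, stayed at or below 8.96 RPKM and did not pass in any comparison. The distant relative HSPA12A ENSMMUG00000010908 reached 1 RPKM only in 1 MI and 1 PN library and at most 0.311 RPKM from 8C on.

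HSP110 proteins, which release ADP from HSP70, split by member. HSPH1 (HSP105) was low up to 4C and at a higher level from 8C on. In oocytes HSPH1 was at 0.417 and 2.14 RPKM at GV, 0.242 and 0.376 at MI and 0.097, 0.014 and 0.012 at MII. Up to 4C, HSPH1 was at 0.125, 0.068 and 0.023 RPKM at PN, 0 and 0.025 at 2C and 1.11, 0 and 0.105 at 4C. From 8C on, HSPH1 was at 19.997 and 6.74 RPKM at 8C, 11.7, 44.7 and 7.14 at Mo and 20.9 and 20.1 at Bl. All 7 late embryos were above all other libraries. It rose from 4C to 8C (log2 change 3.27, SE 0.59, adjusted p = 0.000422) and early to late (log2 change 3.88, SE 0.34, adjusted p = 2.2e-08), and both calls stood without any single library. HSPA4 (APG-2) was highest in the immature oocyte. It was at 102 and 133 RPKM at GV, 133 and 125 at MI and 27.5, 28.4 and 20.1 at MII, so that every MII oocyte was below every GV and MI oocyte. The fall from GV to MII passed (log2 change -2.18, SE 0.55, adjusted p = 0.0161). The HSPA4 call from GV to MII was lost without GV library 1 (0.101), GV library 2 (0.147) or MII library 3 (0.052), and at 0.115 on rescaling. From PN on HSPA4 lay between 12.9 and 74.6 RPKM, and its early to late log2 change was 0.04, adjusted p = 0.925. HSPA4L, its relative best known from testis, was at 14.2 and 12.01 RPKM at GV, 2.31 and 1.9 at 8C and 9.53, 153 and 0.871 at Mo. The morula mean of HSPA4L rests on library 2: it was 54.5 ± 85.5 (SD, n = 3) RPKM with that library and 5.20 without it.

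HSPA5 (BiP), the HSP70 of the endoplasmic reticulum, rose at the 8C stage. In oocytes HSPA5 was at 28.6 and 43.4 RPKM at GV, 30.6 and 18.2 at MI and 5.85, 1.99 and 13.4 at MII. Up to 4C, HSPA5 was at 2.53, 5.201 and 4.85 RPKM at PN, 10.6 and 6.54 at 2C and 0.198, 3.19 and 4.88 at 4C. From 8C on, HSPA5 was at 179 and 29.9 RPKM at 8C, 48.6, 116 and 84.5 at Mo and 13.3 and 105 at Bl. All late embryos were above all early ones, and the 8C and Bl pairs were widely spread. The 4C to 8C rise (log2 change 4.59, SE 0.88, adjusted p = 0.000711) was the largest of any member at that step. The early to late log2 change was 3.54, adjusted p = 9.45e-06, and both calls stood without any single library.

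HSP90B1 (GRP94), the HSP90 of the same compartment, took another course, with its low point in the morula. In oocytes HSP90B1 was at 115 and 155 RPKM at GV, 135 and 98.9 at MI and 132, 55.4 and 113 at MII. Up to 4C, HSP90B1 was at 26.7, 39.01 and 34.4 RPKM at PN, 42.1 and 39.8 at 2C and 9.84, 35.5 and 25.1 at 4C. From 8C on, HSP90B1 was at 11.97 and 17.8 RPKM at 8C, 4.42, 0.094 and 2.17 at Mo and 32.2 and 244 at Bl. All 3 morulae were below every other library, and the 2 blastocysts differed widely. It rose from Mo to Bl (log2 change 5.08, SE 0.74, adjusted p = 0.000106), without depending on any single library, and fell from 8C to Mo (log2 change -2.55, SE 0.74, adjusted p = 0.0154). The HSP90B1 call from 8C to Mo was lost without 8C library 2 (0.104) or Mo library 2 (0.0511). Its early to late fall (log2 change -1.02, adjusted p = 0.0489) was lost on rescaling (adjusted p = 0.203). It was lost also without any 1 of 18 of the 22 libraries, with adjusted p 0.0518 to 0.257, the highest without Bl library 1, and was kept without MII library 2, 4C library 1, Mo library 1 or Bl library 2.

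DNAJB11 and DNAJB9, J-domain partners of BiP, also fell from 8C to the morula. DNAJB11 (ERdj3, entry IMMRNTR5255) was at 61.3 and 50.6 RPKM at GV, 17.5, 16.9 and 17.03 at MII and 26.6, 38.1 and 27.5 at 4C. It was then at 44.9 and 16.6 RPKM at 8C, 4.11, 0.1 and 10.8 at Mo and 2.78 and 20.4 at Bl. Both 8C embryos were above all 3 morulae. It fell from 8C to Mo (log2 change -2.81, SE 0.80, adjusted p = 0.0139; log2 change -1.87 without Mo library 2) and early to late (log2 change -1.44, adjusted p = 0.0123). The DNAJB11 call from 8C to Mo was lost without 8C library 1 (0.156). Early to late, the fall was lost without 2C library 1 (0.0525) or Bl library 1 (0.0697), and at 0.0531 on rescaling. DNAJB9 (ERdj4), another partner of BiP, was at 31.5 and 11.02 RPKM at 8C and 10.2, 0.102 and 3.63 at Mo, again without overlap (log2 change -2.36, SE 0.72, adjusted p = 0.0208). The DNAJB9 call from 8C to Mo was lost without 8C library 1 (0.221) or Mo library 2 (0.0748). At Bl DNAJB9 was at 1.36 and 4.499 RPKM, within the range of the morulae. DNAJC3 (p58IPK), a luminal cochaperone, was at 13.2, 17.3 and 13.2 RPKM at MII, 4.96, 6.76 and 3.68 at 4C and 3.43, 36.2 and 2.12 at Mo, with morula library 2 high, and did not pass in any comparison. HSPA5 thus had its highest stage means at 8C and Mo, while HSP90B1 and DNAJB11 had their lowest at Mo.

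Of 12 further entries of the endoplasmic reticulum, 2 rose and 3 fell early to late, against 25.7% higher and 32.5% lower over all entries. Their median log2 change was -0.19 against -0.15 over all entries. PDIA4, a disulfide isomerase, rose (log2 change 1.19, SE 0.31, adjusted p = 0.00304). SDF2L1, a partner of DNAJB11, rose as well, but not without 8C library 1 (0.0779). ERO1A, which oxidises disulfide isomerases, fell (log2 change -2.01, SE 0.46, adjusted p = 0.00115).

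HSPCA had 73.9% or more of the summed RPKM of the 4 HSP90 entries in each library, and was the highest of the 4 in all 22. The only HSP90AB1 entry among them is the one described as SLC29A1, so this share does not compare HSPCA with an undisputed HSP90AB1 entry. In oocytes HSPCA was at 656 and 790.1 RPKM at GV, 650.0 and 578 at MI and 711, 683 and 674 at MII. Up to 4C, HSPCA was at 283, 399 and 422 RPKM at PN, 341 and 355 at 2C and 231, 595 and 396 at 4C. From 8C on, HSPCA was at 305 and 213 RPKM at 8C, 99.6, 271 and 138 at Mo and 856 and 701 at Bl. All oocytes and blastocysts but 1 MI oocyte were above every library from PN to Mo, and that oocyte was below 1 4C embryo only. From Mo to Bl it rose (log2 change 2.31, SE 0.44, adjusted p = 0.00129), a call that stood without any single library. Its early to late log2 change was -0.21, adjusted p = 0.492, a comparison in which low morulae and high blastocysts are on the same side. A second entry, HSP90AA1 IMMRNTR97, begins 10085 bases past the end of HSPCA. It was listed at 0 at PN, 2C and 4C, at 8.06 and 2.01 RPKM at 8C and at 0, 0 and 0.681 at Mo. In the 2 blastocysts it was at 1.11 and 0.84 RPKM. The entry passed the filter through the 8C embryos and Bl library 1, so its 8C level is given with no test. The disputed HSP90AB1 entry stayed at or under 4.37 RPKM and rose from Mo to Bl by log2 change 1.81, adjusted p = 0.0133. The HSP90AB1 call from Mo to Bl was lost without Bl library 1 (0.109).

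Proteins that work with HSP90 and HSP70 were read from a separate list of 22 entries, of which 8 rose and 7 fell early to late. Over all entries 25.7% were higher and 32.5% lower. The median of the list was 0.32, against -0.15 over all entries. CHORDC1, an HSP90 partner, was at 4.62, 10.8 and 12.01 RPKM at 4C, 27.5 and 17.4 at 8C, 226, 132 and 159.9 at Mo and 70.5 and 74.5 at Bl. All late embryos were above all early ones (log2 change 3.08, SE 0.28, adjusted p = 3.03e-08). AHSA2, a relative of the HSP90 ATPase activator, was at 10.6 and 12.9 RPKM at 8C, 0.328, 0.043 and 0.148 at Mo and 9.27 and 8.66 at Bl. It fell from 8C to Mo (log2 change -3.44, SE 0.49, adjusted p = 3.21e-05) and rose from Mo to Bl (log2 change 3.09, SE 0.49, adjusted p = 0.000219), the steps at which HSP90B1 was also called. BAG1, a nucleotide exchange factor of HSP70, was at 0.296, 0.901 and 0.918 RPKM at 4C and 35.2 and 7.03 at 8C (log2 change 3.35, SE 0.61, adjusted p = 0.00049). FKBP4, an immunophilin bound to HSP90, was at 1.98, 3.94 and 1.68 RPKM at 4C and 17.5 and 23.1 at 8C (log2 change 2.63, SE 0.61, adjusted p = 0.00351).

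The heat shock factors, which switch on chaperone genes under stress, were low. HSF1 was at or under 2.56 RPKM in all libraries, HSF2 between 0.026 and 13.5. In the list of 4 regulator entries 0 were called early to late, against 25.7% higher and 32.5% lower over all entries. The list had 1 call in another comparison. That was HSBP1 ENSMMUG00000020115, a small protein that binds heat shock factor, at 162 and 147 RPKM at GV and 23.01, 16.2 and 25.1 at MII (log2 change -2.81, SE 0.52, adjusted p = 0.00281). The HSBP1 call was lost without GV library 1 (0.051).

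In mitochondria HSPA9, HSPD1 and HSPE1 all rose early to late, but not at the same step. HSPA9 (mortalin), the HSP70 of the import motor, was up from 8C on. In oocytes HSPA9 was at 24.5 and 23.9 RPKM at GV, 23.8 and 26.2 at MI and 13.7, 15.2 and 12.04 at MII. Up to 4C, HSPA9 was at 8.55, 7.61 and 22.2 RPKM at PN, 14.3 and 8.596 at 2C and 3.81, 12.7 and 8.68 at 4C. From 8C on, HSPA9 was at 101 and 49.2 RPKM at 8C, 161, 496 and 185 at Mo and 161 and 147 at Bl. Each late embryo was above each earlier library. It rose from 4C to 8C (log2 change 3.05, SE 0.57, adjusted p = 0.000544) and early to late (log2 change 3.68, SE 0.33, adjusted p = 2.61e-08), and these calls stood without any single library. It passed from 8C to Mo as well (log2 change 1.78, SE 0.57, adjusted p = 0.0258). The HSPA9 call from 8C to Mo was lost without 8C library 2 (0.231) or Mo library 2 (0.0799).

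HSPD1 (HSP60) and HSPE1 (HSP10) form the mitochondrial chamber and its lid. Their entries are neighbours on chromosome 12, HSPD1 at 61103002 to 61117447 and HSPE1 ENSMMUG00000010491 at 61118911 to 61121921, with 1463 bases between them. In oocytes HSPD1 was at 75.2 and 91.5 RPKM at GV, 81.02 and 53.9 at MI and 24.4, 32.4 and 23.8 at MII. Up to 4C, HSPD1 was at 24.2, 23.4 and 31.5 RPKM at PN, 30.04 and 24.1 at 2C and 18.2, 19.1 and 14.3 at 4C. From 8C on, HSPD1 was at 14.9 and 27.8 RPKM at 8C, 97.4, 481 and 161 at Mo and 1036 and 410.2 at Bl. Both 8C embryos were at or near the 4C level, and all morulae and blastocysts were above all other libraries. In oocytes HSPE1 ENSMMUG00000010491 was at 868 and 768 RPKM at GV, 512 and 559.8 at MI and 412, 276 and 711 at MII. Up to 4C, HSPE1 ENSMMUG00000010491 was at 252, 458 and 240.4 RPKM at PN, 302 and 568 at 2C and 262, 404 and 246 at 4C. From 8C on, HSPE1 ENSMMUG00000010491 was at 119 and 101 RPKM at 8C, 602, 3837 and 994 at Mo and 8197 and 3266 at Bl. This entry had the highest level of all members, and its 2 lowest values in the series were those of the 8C embryos. From 8C to Mo both rose, HSPD1 with log2 change 3.21, SE 0.55, adjusted p = 0.000251, and HSPE1 with log2 change 3.57, SE 0.63, adjusted p = 0.000301. Early to late, HSPD1 had log2 change 2.55, SE 0.32, adjusted p = 1.92e-06, and HSPE1 had log2 change 1.45, SE 0.36, adjusted p = 0.00227.

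From Mo to Bl the log2 change of HSPD1 was 1.73, adjusted p = 0.0427, and that of HSPE1 1.97, adjusted p = 0.0419. There the libraries overlapped: in both genes morula library 2 lay above blastocyst library 2. On rescaling both calls were lost (adjusted p = 0.347 and 0.305). The HSPD1 call from Mo to Bl was lost without any 1 of 15 of the 22 libraries, with adjusted p 0.0516 to 0.432, the highest without Bl library 1, and was kept without PN library 2, 2C library 1, 2C library 2, 8C library 1, 8C library 2, Mo library 2 or Bl library 2. The HSPE1 ENSMMUG00000010491 call from Mo to Bl was lost without any 1 of 12 of the 22 libraries, with adjusted p 0.051 to 0.395, the highest without Bl library 1, and was kept without MII library 2, MII library 3, PN library 2, 2C library 1, 2C library 2, 4C library 2, 8C library 1, 8C library 2, Mo library 2 or Bl library 2. Set against HSPD1 in the same library, HSPE1 was 6.17 to 7.97 times as high in the 3 morulae and 7.91 and 7.96 times in the 2 blastocysts. At MII it was 8.52 to 29.9 times as high, and at 8C 3.65 and 7.99 times.

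HSPE1 ENSMMUG00000016547, the entry described as MOBKL3, differed from both. It was at 155, 158 and 185 RPKM at 4C, 83.1 and 48.2 at 8C, 328, 235 and 284 at Mo and 141 and 65.7 at Bl, with no overlap between successive stages. It fell from 4C to 8C (log2 change -1.37, SE 0.41, adjusted p = 0.0203), rose from 8C to Mo (log2 change 2.13, SE 0.41, adjusted p = 0.000771) and fell again from Mo to Bl (log2 change -1.53, SE 0.41, adjusted p = 0.0172), the 1 member that fell at the last step. The HSPE1 ENSMMUG00000016547 call from 4C to 8C was lost without 4C library 3 (0.0627) or 8C library 2 (0.186), and at 0.0691 on rescaling. The fall to Bl was lost without Bl library 2 (0.239). Short HSPE1 copies on chromosomes 9 and 15, which span 378 and 309 bases, stayed at or under 2.29 RPKM and may hold reads of the main gene.

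Among 7 other entries of mitochondrial folding and proteolysis 3 rose and 0 fell early to late, against 25.7% higher and 32.5% lower over all entries. The median was 0.71, against -0.15 over all entries. The CLPB rise was lost without 2C library 2 (0.0671), 8C library 2 (0.0641) or Bl library 1 (0.0519). That of CLPX was lost without 2C library 2 (0.101) or Bl library 1 (0.0735). HSCB, a J-domain protein of iron-sulphur cluster assembly, rose (log2 change 2.10, SE 0.47, adjusted p = 0.000811). TRAP1, the mitochondrial HSP90, was at 0.156, 0 and 1.24 RPKM at Mo and 15.6 and 6.23 at Bl, without overlap (log2 change 2.99, SE 0.57, adjusted p = 0.00119).

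Mitochondrial J-domain proteins gave different courses. DNAJC15 and DNAJC19 are alternative J-domain partners of the import motor. In oocytes DNAJC15 was at 6.98 and 7.81 RPKM at GV, 5.38 and 7.17 at MI and 11.6, 15.7 and 19.4 at MII. Up to 4C, DNAJC15 was at 9.85, 9.62 and 6.37 RPKM at PN, 4.99 and 3.78 at 2C and 4.72, 7.61 and 5.89 at 4C. From 8C on, DNAJC15 was at 1.79 and 11.3 RPKM at 8C, 72.8, 16.8 and 147 at Mo and 91.2 and 46.3 at Bl. All morulae and blastocysts were above both 8C embryos. It rose early to late (log2 change 2.00, SE 0.40, adjusted p = 0.000347) and from 8C to Mo (log2 change 3.30, SE 0.70, adjusted p = 0.00155). The DNAJC15 call from 8C to Mo was lost without 8C library 1 (0.0551). In oocytes DNAJC19 was at 105 and 101 RPKM at GV, 59.8 and 49.1 at MI and 113, 118 and 181 at MII. Up to 4C, DNAJC19 was at 33.9, 57.7 and 22.3 RPKM at PN, 17.2 and 11.6 at 2C and 20.1, 34.5 and 27.3 at 4C. From 8C on, DNAJC19 was at 78.1 and 49.5 RPKM at 8C, 79.8, 0.109 and 80.3 at Mo and 152 and 101 at Bl. Morula library 2 was near 0, while the other morulae were at about the 8C level, and DNAJC19 passed in no comparison. DNAJC11, part of the contact machinery of the inner membrane, fell from 4.94, 3.74 and 2.53 RPKM at 4C to 1.18 and 0.496 at 8C (log2 change -1.36, SE 0.41, adjusted p = 0.0197). It rose to 2.97, 4.47 and 2.29 RPKM at Mo (log2 change 1.201, SE 0.41, adjusted p = 0.0365). The DNAJC11 call from 4C to 8C was lost without 4C library 1 (0.0695) or 8C library 2 (0.136), and at 0.0634 on rescaling. Its rise was lost without 8C library 2 (0.217), Mo library 1 (0.0572) or Mo library 2 (0.1). DNAJA3 IMMRNTR591, the mitochondrial Tid1, rose early to late by log2 change 0.95, adjusted p = 0.0334. The DNAJA3 IMMRNTR591 call early to late was lost without PN library 1 (0.0646), 2C library 2 (0.129), 4C library 2 (0.0562), 8C library 1 (0.109), Mo library 1 (0.0672), Mo library 3 (0.0531) or Bl library 2 (0.0799).

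**Figure D3:**
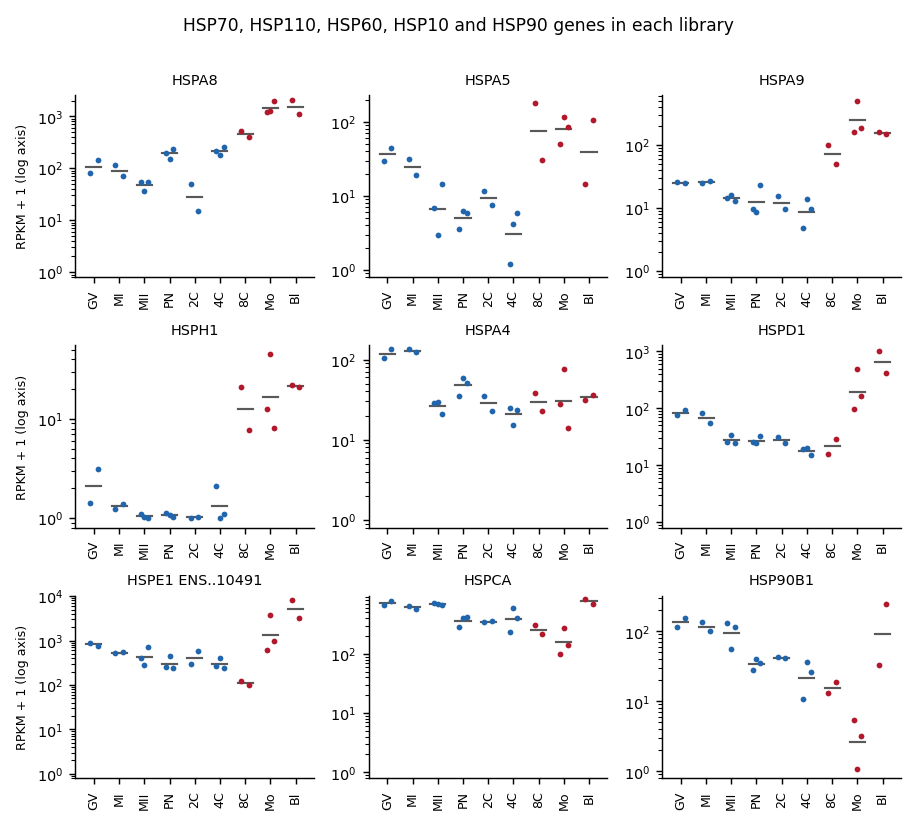
RPKM + 1 on a log axis of 9 HSP70, HSP110, HSP60, HSP10 and HSP90 entries in each of the 22 libraries, by stage; each point is 1 library, blue up to 4C and red from 8C, and the bar is the geometric mean of the stage. HSPA8, HSPA9, HSPH1 and HSPA5 have all red points above the PN, 2C and 4C points, HSPD1 and HSPE1 rise after 8C, and HSP90B1 has its lowest points at Mo.

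CCT rose in most subunits from the early to the late embryos, but the subunits did not start from the same level. CCT8 was the highest subunit in 20 of the 22 libraries. It was at 154 and 177 RPKM at GV, 107, 125 and 124 at MII, 201, 145 and 260.4 at 4C, 144 and 189 at 8C and 606 and 280.0 at Bl. Neither CCT8 (log2 change 0.51, adjusted p = 0.135) nor CCT2 (log2 change 0.45, adjusted p = 0.0901) passed early to late. The summed CCT level had a mean of 308 ± 16.6 (SD, n = 3) RPKM at MII and 485 ± 109 (SD, n = 3) at 4C. It was 549.7 ± 142 (SD, n = 2) RPKM at 8C, 1122 ± 263 (SD, n = 3) at Mo and 1599.6 ± 669 (SD, n = 2) at Bl.

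CCT4 had the largest early to late rise of all members. In oocytes CCT4 was at 24.5 and 22.2 RPKM at GV, 12.4 and 15.2 at MI and 4.25, 2.41 and 5.75 at MII. Up to 4C, CCT4 was at 1.58, 2.41 and 6.55 RPKM at PN, 0.103 and 0.606 at 2C and 1.75, 4.898 and 4.19 at 4C. From 8C on, CCT4 was at 30.6 and 32.5 RPKM at 8C, 45.2, 101 and 31.6 at Mo and 211 and 94.1 at Bl. The late embryos were above all other libraries and the 2C embryos below them all. It rose from 4C to 8C (log2 change 2.89, SE 0.57, adjusted p = 0.000918) and early to late (log2 change 4.45, SE 0.33, adjusted p = 2.31e-09), and both calls stood without any single library. In oocytes CCT3 was at 77.2 and 64.02 RPKM at GV, 67.7 and 92.1 at MI and 13.3, 20.6 and 13.003 at MII. Up to 4C, CCT3 was at 12.5, 30.3 and 21.1 RPKM at PN, 18.6 and 16.5 at 2C and 10.5, 6.73 and 8.91 at 4C. From 8C on, CCT3 was at 89.1 and 33.1 RPKM at 8C, 167, 64.9 and 176 at Mo and 191 and 147 at Bl. In CCT3, too, the late embryos were above all of PN, 2C and 4C, while the GV oocytes lay within the range of the late embryos. It rose from 4C to 8C (log2 change 2.53, SE 0.52, adjusted p = 0.00126) and early to late (log2 change 2.76, SE 0.30, adjusted p = 3.02e-07). Both subunits fell from GV to MII, CCT4 by log2 change -2.30, adjusted p = 0.015, and CCT3 by log2 change -2.13, adjusted p = 0.013. The CCT4 call from GV to MII was lost without GV library 1 (0.141), GV library 2 (0.091) or MII library 2 (0.0716), and at 0.101 on rescaling. The CCT3 call from GV to MII was lost without GV library 1 (0.147) or GV library 2 (0.0724).

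CCT7 was the lowest entry of the ring for most of the series. In all 15 libraries up to 4C it was under 1 RPKM. From 8C on it read 0.052 and 5.21 RPKM at 8C, 4.33, 0.026 and 31.7 at Mo and 171 and 63.6 at Bl. In 8C library 1 and morula library 2 it was near 0, and both blastocysts were above all other libraries. It rose from Mo to Bl (log2 change 4.23, SE 0.93, adjusted p = 0.00441). The CCT7 call from Mo to Bl was lost without Bl library 1 (0.0844). The entry lies at chromosome 13, 73538275 to 73556613, as deposited. CCT7 was the lowest subunit in 20 of 22 libraries, with CCT6A ENSMMUG00000015272 taken for subunit 6. The table holds no counts, and other genes in general use read at or near 0 as well: CDC37, an HSP90 cochaperone, was listed at 0 in all 3 4C embryos, and LONP1, a mitochondrial protease, at or under 1.47 RPKM in all libraries. Whether the CCT7 entry fails to collect reads in the early libraries was not tested.

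The assembled ring holds its subunits in equal number, so the ratio of the highest to the lowest subunit was followed, leaving out CCT7. Between stage means of RPKM it was 7.10 at GV, 20.4 at MI, 28.8 at MII, 52.1 at PN, 576 at 2C and 55.9 at 4C. The 2C value rests on CCT4 levels near the floor and was 2738 in 2C library 1 and 208 in 2C library 2. The later values were 5.28 at 8C and 5.59 at Mo, with 3.44 at Bl. In the single morulae the ratio was 6.74, 3.81 and 17.05, and without morula library 2 that of the means was 10.98, or 3.11 without morula library 3. CCT4 set the lower end of the stage means at each stage up to Mo, and CCT5 at Bl. The plan had included CCT7. With CCT7 the ratio between stage means was 2471 at GV, 2688 at MI, 481 at MII, 836 at PN, 2519 at 2C and 4041 at 4C. It was then 63.4 at 8C, 27.5 at Mo and 3.78 at Bl. Up to 4C these ratios rest on CCT7 levels under 1 RPKM.

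The remaining subunits gave smaller changes. CCT5 was at 10.96, 14.97 and 14.1 RPKM at MII, 35.99, 18.6 and 37.9 at 4C, 77.8 and 35.9 at 8C and 159.7 and 97.8 at Bl, and rose early to late (log2 change 1.88, SE 0.29, adjusted p = 1.98e-05). TCP1 (CCT1) was at 70.8, 68.8 and 93.6 RPKM at 4C, 104 and 43.6 at 8C and 246 and 128 at Bl, and rose early to late by log2 change 0.75, adjusted p = 0.0188. The TCP1 call early to late was lost without 2C library 2 (0.0656), 8C library 1 (0.0867) or Bl library 1 (0.0747). CCT2 dipped at 8C: it was at 131, 104 and 145 RPKM at 4C, 37.8 and 69.4 at 8C and 188, 118 and 186 at Mo. It fell from 4C to 8C (log2 change -1.28, SE 0.39, adjusted p = 0.0207) and rose from 8C to Mo (log2 change 1.63, SE 0.39, adjusted p = 0.00389). The CCT2 call from 4C to 8C was lost without 4C library 1 (0.0539), 4C library 3 (0.0696) or 8C library 1 (0.237), and at 0.0668 on rescaling. The CCT2 rise was lost without 8C library 1 (0.0735).

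Subunit 6 is encoded by a pair of genes, CCT6A in most tissues and CCT6B mainly in testis, and these moved in opposite directions. In oocytes CCT6A ENSMMUG00000015272 was at 34.9 and 60.6 RPKM at GV, 35.9 and 27.9 at MI and 41.5, 14.4 and 29.9 at MII. Up to 4C, CCT6A ENSMMUG00000015272 was at 30.6, 15.8 and 39.7 RPKM at PN, 31.3 and 5.09 at 2C and 12.97, 16.3 and 28.1 at 4C. From 8C on, CCT6A ENSMMUG00000015272 was at 153 and 39.9 RPKM at 8C, 86.8, 247 and 88.1 at Mo and 178 and 107 at Bl. The late embryos were above all of PN, 2C and 4C, and it rose early to late (log2 change 2.51, SE 0.42, adjusted p = 5.24e-05). In oocytes CCT6B was at 6.48 and 13.4 RPKM at GV, 18.7 and 15.8 at MI and 9.98, 12.7 and 15.3 at MII. Up to 4C, CCT6B was at 4.24, 7.13 and 7.96 RPKM at PN, 22.7 and 10.7 at 2C and 16.5, 14.3 and 17.3 at 4C. From 8C on, CCT6B was at 3.92 and 0.294 RPKM at 8C, 3.51, 0 and 1.68 at Mo and 1.09 and 0.692 at Bl. CCT6B fell early to late (log2 change -2.52, SE 0.35, adjusted p = 7.16e-06), the 1 CCT entry to do so, and its early and late libraries did not overlap. It also fell from 4C to 8C (log2 change -2.75, SE 0.61, adjusted p = 0.00255). The CCT6B call from 4C to 8C was lost without 8C library 2 (0.0742). A second entry named CCT6A, IMMRNTR3769, lies on chromosome 3 at 59270352 to 59277824, away from the first at 70063516 to 70075668. It overlaps the entry of the pseudogene CCT6P3, IMMRNTR3836, at 59269163 to 59275337. Whether IMMRNTR3769 reads CCT6A or the pseudogene was not tested. It was at 0.608, 0.175 and 0 RPKM at 4C and 9.36, 2.304 and 6.495 at Mo and rose early to late by log2 change 1.99, adjusted p = 0.000173. The pseudogene CCT6P3 IMMRNTR3836, whose reads could be shared with CCT6A, rose early to late by log2 change 1.45, adjusted p = 0.0131. The CCT6P3 IMMRNTR3836 call early to late was lost without 2C library 2 (0.0612), 8C library 1 (0.0713) or Bl library 2 (0.078).

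Prefoldin hands unfolded actin and tubulin to CCT, and PDCL3 is a phosducin-like cofactor of the ring. Of 8 entries in this list 1 rose and 1 fell early to late, against 25.7% higher and 32.5% lower over all entries. PDCL3 was at 43.4, 24.97 and 31.8 RPKM at 4C, 786 and 363 at 8C, 1029, 236 and 669 at Mo and 321 and 125 at Bl. It rose from 4C to 8C (log2 change 3.99, SE 0.66, adjusted p = 0.000181) and early to late (log2 change 4.26, SE 0.38, adjusted p = 2.79e-08), with all late embryos above all early ones. VBP1 (prefoldin subunit 3) was at 49.9, 38.1 and 110.1 RPKM at 4C, 8.21 and 8.905 at 8C and 45.3, 79.1 and 65.004 at Mo. It fell from 4C to 8C (log2 change -2.66, SE 0.60, adjusted p = 0.00277) and rose from 8C to Mo (log2 change 2.71, SE 0.60, adjusted p = 0.0022), as CCT2 did.

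**Figure D4:**
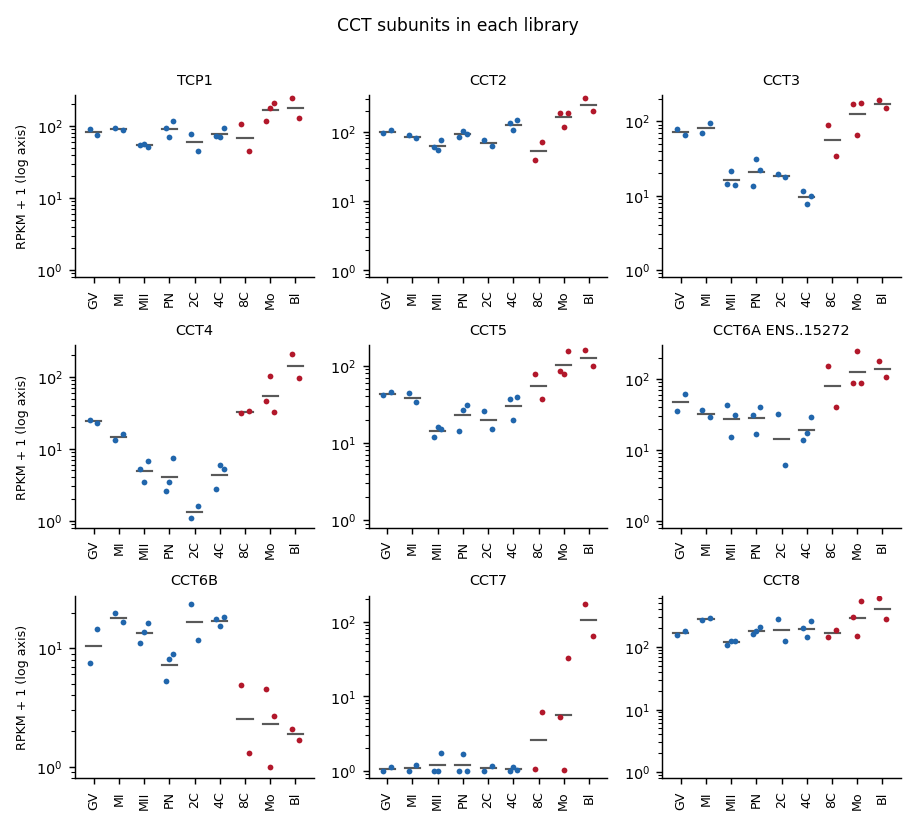
RPKM + 1 on a log axis of the 9 CCT genes in each of the 22 libraries, by stage; each point is 1 library, blue up to 4C and red from 8C, and the bar is the geometric mean of the stage. CCT4 drops to its lowest points at 2C and is higher in every red point, CCT7 is near the floor up to 4C, and CCT6B falls in the red points.

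Small heat shock proteins hold unfolded proteins without using ATP. HSPB11 (IFT25) works in intraflagellar transport and was the highest entry of the class. In oocytes HSPB11 was at 175 and 158 RPKM at GV, 116 and 94.1 at MI and 252, 117 and 273 at MII. Up to 4C, HSPB11 was at 37.7, 39.9 and 42.1 RPKM at PN, 18.6 and 33.4 at 2C and 34.4, 57.5 and 31.7 at 4C. From 8C on, HSPB11 was at 64.2 and 2.52 RPKM at 8C, 27.9, 0.779 and 27.98 at Mo and 33.4 and 22.5 at Bl. All GV and MII oocytes were above all MI, PN, 2C and 4C libraries. HSPB11 passed in none of the 6 comparisons but differed over the 9 stages (limma F test, adjusted p = 0.00962), a call lost on rescaling (0.0675). HSPCA and DNAJC19 were also higher in each GV and MII oocyte than in any library from MI, PN, 2C or 4C. DNAJC14 was lower in each of them, at 0.661 and 0.899 RPKM at GV and 1.07, 0.923 and 0.94 at MII against 1.15 and 2.25 at MI. Of the 14312 entries tested, 383 separated these stages in this way, in either direction.

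HSPB6 (HSP20) was present up to 4C and was nearly lost after 8C. In oocytes HSPB6 was at 1.31 and 2.12 RPKM at GV, 1.31 and 1.43 at MI and 3.21, 2.605 and 2.09 at MII. Up to 4C, HSPB6 was at 3.97, 13.7 and 13.7 RPKM at PN, 2.93 and 5.19 at 2C and 5.62, 13.1 and 7.63 at 4C. From 8C on, HSPB6 was at 1.76 and 0 RPKM at 8C, 0, 0 and 0.205 at Mo and 0.341 and 0.109 at Bl. It fell from 4C to 8C (log2 change -2.48, SE 0.52, adjusted p = 0.00147) and early to late (log2 change -2.59, SE 0.30, adjusted p = 6.79e-07), without depending on any single library. HSPB3 was listed at 0 in all libraries from 2C to Mo and at 30.4 and 4.28 RPKM at Bl, and reached 1 RPKM elsewhere only in MI library 2. HSPB8, which pairs with BAG3 in selective autophagy, was listed at 0 at 8C and Mo and at 3.02 and 6.62 RPKM at Bl. Both passed the filter through the 2 blastocysts, so these levels are given with no test.

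Among the general partners of cytosolic HSP70, DNAJB1 (HSP40), the stress-inducible one, stood highest at GV, MI and 8C. In oocytes DNAJB1 was at 127 and 81.1 RPKM at GV, 78.6 and 103 at MI and 19.6, 10.7 and 24.96 at MII. Up to 4C, DNAJB1 was at 35.2, 73.1 and 68.8 RPKM at PN, 86.5 and 78.2 at 2C and 53.03, 23.9 and 38.4 at 4C. From 8C on, DNAJB1 was at 106 and 134 RPKM at 8C, 9.14, 18.3 and 11.5 at Mo and 14.5 and 13.3 at Bl. Both 8C embryos were above all 4C embryos, and all morulae and blastocysts below all libraries of PN, 2C, 4C and 8C. It fell from GV to MII (log2 change -2.47, SE 0.48, adjusted p = 0.00348), rose from 4C to 8C (log2 change 1.68, SE 0.48, adjusted p = 0.0145), and fell from 8C to Mo (log2 change -3.16, SE 0.48, adjusted p = 6.53e-05). The last of these stood without any single library. The DNAJB1 call from GV to MII was lost without GV library 1 (0.0845). Its rise at 8C was lost without 4C library 2 (0.0633) or 8C library 2 (0.0879). Early to late it fell by log2 change -0.96, adjusted p = 0.00588, which was lost on rescaling (adjusted p = 0.226).

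DNAJA1, a main partner of HSPA8, was at 209 and 184 RPKM at MI, 122 and 103 at 8C, 42.4, 15.2 and 50.1 at Mo and 68.6 and 52.3 at Bl. The morulae and blastocysts were below both 8C embryos, and it fell from 8C to Mo (log2 change -1.78, SE 0.45, adjusted p = 0.00611). Its early to late log2 change was -0.55, adjusted p = 0.0789. DNAJA2, at 23.3 to 104 RPKM over the 22 libraries, passed in no comparison and did not pass the F test. DNAJB6, which keeps aggregation-prone proteins soluble, was at 16.1, 21.2 and 22.3 RPKM at MII and 71.1, 70.6 and 90.1 at Mo and rose early to late by log2 change 0.65, adjusted p = 0.033. The DNAJB6 call early to late was lost without PN library 1 (0.0659), 2C library 1 (0.101), 4C library 2 (0.0673), 8C library 1 (0.0669), Mo library 3 (0.0541) or Bl library 1 (0.107).

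Low relatives of these genes fell early to late. DNAJA4, a cytosolic relative of DNAJA1, was at 26.2 and 19.3 RPKM at GV, 6.83, 3.35 and 5.42 at MII, 10.03, 5.85 and 5.84 at 4C, 2.61 and 1.66 at 8C, 0.181, 0.044 and 0.063 at Mo and 1.21 and 1.63 at Bl. All late embryos were below all 4C embryos, and the early to late fall (log2 change -2.08, SE 0.25, adjusted p = 1.02e-06) stood without any single library. DNAJB5, a relative of DNAJB1, was at 2.51, 10.96 and 4.47 RPKM at 4C and listed at 0 in the 3 morulae, and fell early to late by log2 change -1.83, adjusted p = 2.02e-05. DNAJB4, another relative, was at 32.8 and 27.04 RPKM at 2C, 1.11, 24.2 and 0 at Mo and 0.054 and 0.781 at Bl. In the morula only library 2 held it above 2 RPKM, and it fell early to late by log2 change -2.09, adjusted p = 0.00471.

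DNAJC proteins carry a J domain on otherwise unrelated bodies. DNAJC2 (MPP11), which sits on ribosomes with HSPA14, was highest in the oocytes. In oocytes DNAJC2 was at 177 and 216 RPKM at GV, 158 and 188 at MI and 191, 167 and 169 at MII. Up to 4C, DNAJC2 was at 97.3, 88.8 and 118 RPKM at PN, 58.2 and 66.3 at 2C and 80.9, 157 and 105 at 4C. From 8C on, DNAJC2 was at 34.6 and 31.97 RPKM at 8C, 51.5, 112 and 41.7 at Mo and 38.3 and 27.8 at Bl. Both 8C embryos were below all early embryos. It fell from 4C to 8C (log2 change -1.70, SE 0.42, adjusted p = 0.00602) and early to late (log2 change -1.10, SE 0.24, adjusted p = 0.000848), and both calls were lost on rescaling (adjusted p = 0.0577 and 0.121). HSPA14 and DNAJC2 were called in opposite directions early to late.

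DNAJC8, a spliceosome protein, was at 33.6, 64.6 and 48.9 RPKM at 4C, 261 and 113 at 8C, 219, 46.3 and 154 at Mo and 91.2 and 96.8 at Bl. It rose early to late (log2 change 1.33, SE 0.31, adjusted p = 0.00141) and from 4C to 8C (log2 change 1.84, adjusted p = 0.0185). The DNAJC8 call from 4C to 8C was lost without 4C library 1 (0.0707) or 8C library 1 (0.233). DNAJC9, a histone chaperone, was at 68.9 and 57.2 RPKM at GV, 47.1, 21.6 and 49.1 at MII, 14.6, 11.8 and 13.5 at 4C and 58.5 and 38.4 at Bl. The 4C embryos were below all MII oocytes, and it fell from MII to 4C by log2 change -1.41, adjusted p = 0.0281. The DNAJC9 call from MII to 4C was lost without MII library 1 (0.131), MII library 3 (0.124), 4C library 1 (0.071), 4C library 2 (0.078) or 4C library 3 (0.0763), and at 0.163 on rescaling.

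DNAJC13 (RME-8), which sorts cargo on endosomes, was highest at GV and MI and lowest in the morula. In oocytes DNAJC13 was at 38.2 and 39.2 RPKM at GV, 39.2 and 27.9 at MI and 26.4, 18.7 and 24.7 at MII. Up to 4C, DNAJC13 was at 12.6, 9.87 and 21.9 RPKM at PN, 20.95 and 8.93 at 2C and 13.9, 14.2 and 10.3 at 4C. From 8C on, DNAJC13 was at 12.6 and 13.5 RPKM at 8C, 2.66, 0.058 and 1.86 at Mo and 5.504 and 7.59 at Bl. It fell early to late (log2 change -1.23, SE 0.30, adjusted p = 0.00173) and from 8C to Mo (log2 change -2.66, SE 0.52, adjusted p = 0.000775). Both blastocysts were above all morulae (log2 change 1.75, adjusted p = 0.0287). The DNAJC13 call from Mo to Bl was lost without Mo library 2 (0.0858), Bl library 1 (0.0866) or Bl library 2 (0.165). DNAJC18, a protein of the endoplasmic reticulum membrane, was almost absent from the mature oocyte. In oocytes DNAJC18 was at 19.2 and 14.2 RPKM at GV, 36.1 and 18.8 at MI and 1.404, 0 and 1.91 at MII. Up to 4C, DNAJC18 was at 13.8, 29.7 and 6.697 RPKM at PN, 6.07 and 5.497 at 2C and 41.1, 12.8 and 17.7 at 4C. From 8C on, DNAJC18 was at 3.99 and 6.002 RPKM at 8C, 6.901, 0.163 and 2.05 at Mo and 0 and 2.12 at Bl. The 3 MII oocytes were below every other library up to 8C. It fell from GV to MII (log2 change -3.19, SE 0.76, adjusted p = 0.012) and rose from MII to 4C (log2 change 3.53, SE 0.68, adjusted p = 0.00273), and the rise stood without any single library. The DNAJC18 call from GV to MII was lost without GV library 1 (0.14), GV library 2 (0.0662) or MII library 2 (0.0646), and at 0.057 on rescaling. Early to late it fell by log2 change -2.05, adjusted p = 0.000607.

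DNAJC12, a partner of the aromatic amino acid hydroxylases, was at 6.96 and 19.3 RPKM at GV and 0.245, 1.66 and 4.23 at MII and fell between them by log2 change -2.30, adjusted p = 0.0287. The DNAJC12 call from GV to MII was lost without GV library 1 (0.0668), GV library 2 (0.324), MII library 1 (0.119) or MII library 2 (0.075), and at 0.101 on rescaling. It was at 7.42 and 3.57 RPKM at 8C and 0.68, 0 and 0 at Mo, a fall by log2 change -2.38, adjusted p = 0.00933. That fall was lost without 8C library 1 (0.1). DNAJC21, a factor of large ribosomal subunit assembly, passed in no comparison. DNAJC7, a cochaperone shared by HSP70 and HSP90, did not pass either, with a mean of 0.931 ± 0.1902 (SD, n = 2) RPKM at GV and 11.8 ± 10.9 (SD, n = 3) at Mo.

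The disputed DNAJC25 entry was at 0.209, 0.258 and 0.029 RPKM at 4C, 21.1 and 5.22 at 8C and 2.01, 12.1 and 4.54 at Mo. It rose from 4C to 8C (log2 change 3.34, SE 0.64, adjusted p = 0.000708) and early to late (log2 change 2.42, adjusted p = 1.87e-05), and both 8C embryos were above all 4C embryos. The disputed entry DNAJC24 ENSMMUG00000016807 was at 4.22, 0 and 0.158 RPKM at Mo and 26.1 and 5.46 at Bl (log2 change 2.86, SE 0.68, adjusted p = 0.00718). The DNAJC24 ENSMMUG00000016807 call from Mo to Bl was lost without Bl library 1 (0.189). DNAJC3-AS1 IMMRNTR3017 fell from 16.5, 23.4 and 12.1 RPKM at MII to 1.54, 9.695 and 2.47 at 4C (log2 change -1.97, adjusted p = 0.0167). The DNAJC3-AS1 IMMRNTR3017 call from MII to 4C was lost without MII library 1 (0.0545), MII library 2 (0.0749), 4C library 1 (0.105) or 4C library 3 (0.0754), and at 0.0523 on rescaling. The use of strand in counting is not given in the sources used here, so its reads cannot be told apart from those of DNAJC3. Leaving out the 5 entries of other kinds and the 4 disputed entries gave 22 rises and 19 falls early to late among 68 entries.

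**Figure D5:**
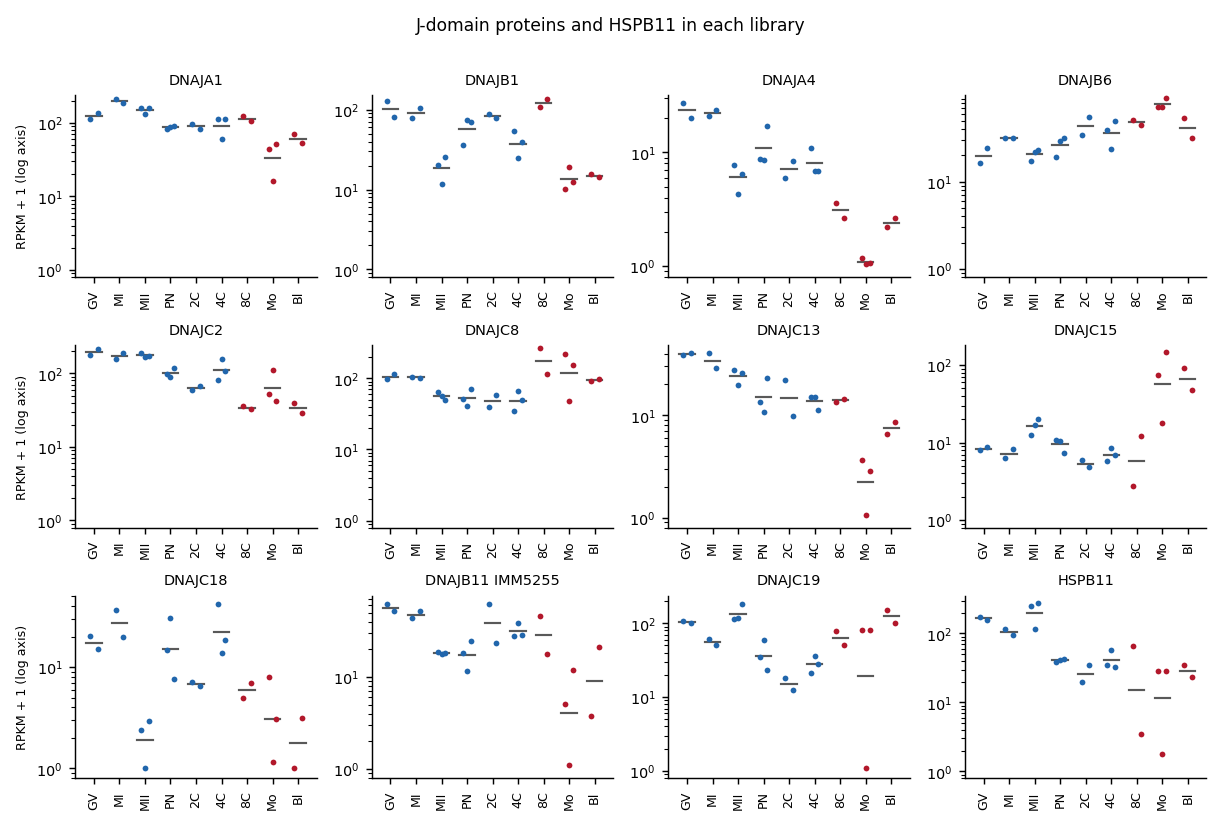
RPKM + 1 on a log axis of 11 J-domain proteins and HSPB11 in each of the 22 libraries, by stage; each point is 1 library, blue up to 4C and red from 8C, and the bar is the geometric mean of the stage. DNAJB1 is high at 8C and low in the morulae and blastocysts, DNAJC18 has its lowest oocyte points at MII, DNAJC15 rises after 8C, and DNAJC19 and HSPB11 each have 1 morula near the floor, which is library 2.

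Over all entries that passed, the log2 levels of morula library 2 correlated by 0.74 and 0.745 with the other morulae, against 0.952 between those. Of the 77 entries 22 were above both other morulae there and 37 below both. Any 1 of 3 libraries is above or below both others in many entries. The shares over all entries were not counted, so these counts are no result about the members. Among the higher ones, DNAJC28 read 2.39, 104 and 0.374 RPKM in morula libraries 1, 2 and 3. DNAJB14, a membrane J-domain protein of the endoplasmic reticulum, read 1.02, 30.5 and 0.365. Among the lower ones, DNAJC7 read 13.8, 0.024 and 21.6 RPKM and DNAJC17, a splicing factor, 11.8, 0.122 and 13.4. Without this library the early to late counts were 29 higher and 20 lower, and the F test called 64 members.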

How the data were processed

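The data are 22 single-cell or single-embryo libraries, made per the labels' protocols with the SMARTer Ultra Low Input kit and a TruSeq DNA library kit. Values are RPKM, reads normalised to transcript length and library size, as the authors deposited them in 1 table with gene names and positions. Build Mmul_8.0.1 is given per the submitters' processing notes; the aligner and counter are not given in the sources used here. Gene names came from an Ensembl name table, which named 55 of the 77 members, and otherwise from the deposited table. The table holds no counts: depth was estimated as the library size at which most RPKM values of short entries came out as whole reads. At the sizes chosen, 439 of 470 values (93.4%) were whole within 0.05. The choice itself maximised this share, so it is no separate check of the depths. The precision per sample is limited by these depths and by 2 or 3 libraries a stage.

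Tests used limma 3.58.1 (R 4.3.3) over all entries that reached 1 RPKM in 2 or more libraries. The model took log2(RPKM + 1) and fitted 1 mean for each of the 9 stages, leaving 13 residual degrees of freedom, with a moderated variance that follows a trend and is robust to outliers. P-values are 2-sided and Benjamini-Hochberg adjusted over all 14312 entries in each comparison, and a call is an adjusted p under 0.05. On simulated data with large planted changes and independent noise, the fit was checked to return those changes. The simulation held no outlying library such as morula library 2, so it does not test the calls against one. Python 3.11.15 with pandas 2.3.3 and matplotlib 3.10.9 made summaries and figures. The genes named are a panel chosen by function and, in each comparison, up to 6 called members a direction with the largest change, provided that the groups were separate and the higher one averaged 10 RPKM or more. The members and lists were chosen with earlier results of these data known. Alternatives were a pseudocount of 0.1, no filter, median-of-ratios scaling, only the stages compared, a replicate block and each library left out. Leaving out the 9 entries with disputed or other names was added after seeing the data.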

Additional observations from a re-analysis of the deposited data

How the results depend on the processing

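A pseudocount of 0.1 gave 3 falls from GV to MII in place of 8. Rescaling by median ratios gave 3 falls from GV to MII, 1 from MII to 4C, 3 from 4C to 8C, 2 from Mo to Bl and 13 early to late. A fit of only the stages compared gave 1 rise and 14 falls from GV to MII, 4 falls from 4C to 8C, 0 rises and 4 falls from 8C to Mo, and 3 rises and 0 falls from Mo to Bl. Leaving out the 9 entries with disputed or other names, chosen after seeing the data, left 0 falls from Mo to Bl. The cause of these shifts was not tested. With each library left out in turn, the rises and falls ranged from 0 to 1 and 0 to 10 (GV to MII), 2 to 3 and 1 to 8 (MII to 4C), 8 to 13 and 4 to 12 (4C to 8C), 5 to 11 and 7 to 13 (8C to Mo), 4 to 14 and 0 to 2 (Mo to Bl), and 21 to 29 and 15 to 22 (early to late). The F test called 51 to 64 members. Of 87 named calls, 42 were lost without at least 1 library, 39 in the fit of only the stages compared, 18 on rescaling, 9 with the smaller pseudocount, 9 without the filter and 6 with the replicate block, and 0 changed sign.

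With a replicate block the rises and falls were 0 and 9, 2 and 5, 11 and 9, 9 and 12, 10 and 1, and 25 and 19 in the same order of comparisons, and the F test called 56 members. Same-numbered libraries correlated by -0.03 to 0.12 in their deviations from stage means. Each deviation is taken from a mean of 2 or 3 libraries, so these values cannot decide whether the numbers pair the samples. With 2 or 3 libraries a stage, a change that did not pass may still be present.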
